A study of Mus musculus with 6 samples.

Results

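Expression of the interleukin 1 (IL-1) family cytokines and their receptors was examined in murine bone marrow–derived macrophages (BMDMs). The family was represented by 9 genes taken by symbol, namely the cytokines *Il1a*, *Il1b*, *Il18*, and *Il33*, the antagonist *Il1rn*, the binding protein *Il18bp*, and the receptor chains *Il1r1*, *Il1r2*, and *Il1rap*. Every probe that was not a control and carried one of these symbols was used, which gave 9 of the 34844 gene names and 11 of the 55681 probes on the array. The cells came from female wild type C57BL/6 mice, for which the strain field reads C57/B6 and the labels give an age of 6 to 8 weeks, although the sources used here differ on the age and the substrain, and were grown with L929-conditioned medium for 7 days. Untreated cells received neither agent. LPS cells received LPS, a component of the outer membrane of Gram-negative bacteria and a TLR4 ligand, for 4 h, at a dose that the series description gives as 100 ng/ml and the treatment protocol as 100 ng/µl. LPS+USP7i cells received a small-molecule inhibitor of the deubiquitinase USP7 at 10 µM, 30 min ahead of the same LPS treatment. No solvent control is named for the cells given LPS alone, so effects of the USP7 inhibitor and of its solvent cannot be told apart.

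Each of the 3 groups had 2 samples, described as independent experiments, and each sample was hybridized to a 1-color Agilent array. The 6 arrays lay on 1 slide read in 1 scan, and their small number limits the precision of every value. The position of an array on the slide is given by 2 numbers, of which the first equals the replicate number in every group and the second differed between the groups in the same way as the treatment. The effects of position cannot be told apart from those of replicate and treatment. Values are log2 signals normalized between arrays, and they can be compared between samples for the same probe but not between probes.

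IL-1α and IL-1β bind the same signaling receptor, IL-1R1, which recruits the accessory chain IL-1RAcP and signals through MyD88 and IRAK kinases to NF-κB. The receptor antagonist and the decoy receptor IL-1R2 limit this signaling, and the IL-18 binding protein limits that of IL-18. Macrophages are a known source of IL-1β and IL-18, whose precursors are cleaved by caspase-1 in inflammasomes. All 8 macrophage markers examined were well above background on all 6 arrays, among them *Csf1r*, which encodes the receptor for macrophage colony-stimulating factor.

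LPS stimulation raised 6 of the 9 family genes relative to untreated cells, namely *Il1a*, *Il1b*, *Il18*, *Il33*, *Il1rn*, and *Il18bp* (limma, adjusted p value under 0.05). Over all gene names tested, 7.98% were called higher and 12.8% lower in that comparison. None of the 9 (0) was called lower with LPS by limma, and at an unadjusted p under 0.05 the counts were 8 higher and 0 lower, against 4355 and 7163 gene names. With the USP7 inhibitor, 3 of the 9 genes were lower than with LPS alone, *Il1a*, *Il18*, and *Il33*, and 1 was higher, *Il1r1*, against a background of 4.28% lower and 5.51% higher. The unadjusted counts were 5 lower and 1 higher, where 4067 and 4989 of 34843 gene names were, so the 1 gene higher is no more than the share over all gene names. With the replicate number as a block, limma called 1 of the 9 lower, *Il18*, and 1 higher, *Il1r1*, against 3.23% and 4.09% of all gene names. In LPS+USP7i compared with untreated cells, 6 of the 9 genes were higher and 0 lower by limma, against 6.15% and 8.72% of all gene names, and the unadjusted counts were 7 and 0, against 4239 and 5778 gene names. The median log2 difference of the 9 genes was 2.60 for LPS minus untreated, −1.26 for LPS+USP7i minus LPS, and 2.35 for LPS+USP7i minus untreated, while the medians over all gene names were 0.0016, 0.00078, and −0.0021. The 3 comparisons share arrays with each other, so they are not independent. As the samples are bulk RNA, fewer cells of a type and less RNA per cell cannot be told apart.

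**Figure D1:**
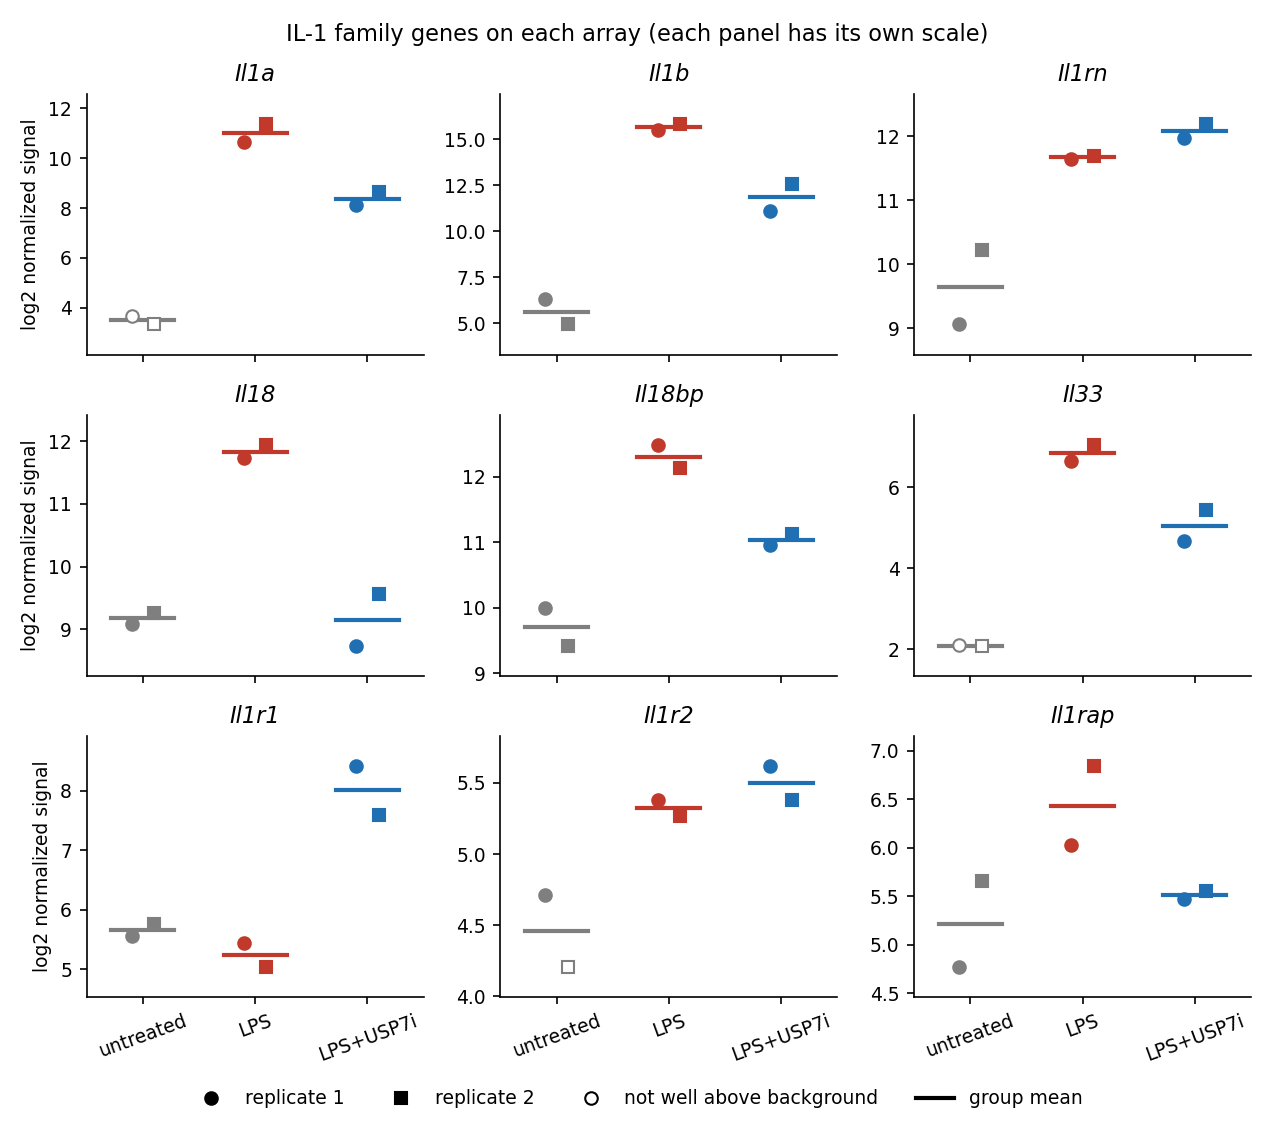
Log2 normalized signal (vertical axis) of the 9 IL-1 family genes on each of the 6 arrays, grouped as untreated, LPS, and LPS+USP7i along the horizontal axis, with the points standing for single arrays and the bars for group means. *Il1b* ran from 4.94 to 15.85, and *Il1r1* was the gene with its highest values, 8.42 and 7.60, in LPS+USP7i cells and its lowest in LPS cells.

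*Il1a* encodes IL-1α, an agonist that is active without cleavage by caspase-1. Its log2 signal was 3.68 and 3.32 on the untreated arrays, 10.67 and 11.39 on the LPS arrays, and 8.11 and 8.66 on the LPS+USP7i arrays. The groups did not overlap, and the order from low to high was untreated, LPS+USP7i, LPS. *Il1a* was not well above background on either untreated array, so the rise with LPS is given as a bound, in which each untreated array is set to its own reading or to the dimmest reading that any probe well above background had on that array, whichever was larger, before the group means are compared. By this bound *Il1a* was at least 139-fold higher with LPS (adjusted p = 0.00317) and at least 22.2-fold higher with LPS+USP7i (adjusted p = 0.0076) than in untreated cells. As log2 differences without the bound these were 7.53 and 4.88, and with normexp background correction 4.53 and 2.13, with the value for LPS+USP7i from the deposited table in between. Between LPS+USP7i and LPS it fell by 2.65 on the log2 scale (standard error, SE, 0.35, adjusted p = 0.0299), a 6.27-fold decrease. Taken by replicate number, the difference was −2.56 for replicate 1 and −2.73 for replicate 2. This call was kept in 7 of 15 alternative analyses, in which the adjusted p ranged from 0.0023 to 0.101. It was lost with any of the 6 arrays left out, with the replicate number as a block, and with the 2 groups fitted alone, and the log2 difference over the alternatives lay between −3.01 and −2.29. The call against untreated cells with LPS+USP7i was lost without untreated replicate 2 (adjusted p = 0.0532).

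*Il1b*, which encodes the agonist IL-1β, was measured by 10 spots of 1 probe, and the SD among these spots was between 0.0536 and 0.174 on each array. The log2 signal was 6.34 and 4.94 on the untreated arrays, 15.49 and 15.85 on the LPS arrays, and 11.12 and 12.59 on the LPS+USP7i arrays. Here too the groups were ordered untreated, LPS+USP7i, LPS without overlap, and the replicates of LPS+USP7i cells (SD 1.04, n = 2) lay further apart than those of LPS cells (SD 0.25, n = 2). The probe was well above background on every array. *Il1b* was 10.03 higher on the log2 scale with LPS (SE 0.73, adjusted p = 0.0052) and remained 6.21 higher than in untreated cells with LPS+USP7i (adjusted p = 0.0169), 61.9% of the log2 rise. With normexp background correction these differences were 8.70 and 4.89. The decrease between LPS and LPS+USP7i, a log2 difference of −3.82 or a 14.1-fold lower signal, did not pass the threshold (limma, adjusted p = 0.0607). On the log2 scale it was −4.38 and −3.26 in the separate replicates. It passed in 5 of the 15 alternatives, among them the deposited table, with an adjusted p between 0.00323 and 0.196. The rise over untreated cells with LPS+USP7i was lost without either untreated array, either LPS array, or LPS+USP7i replicate 2 and with the 2 groups fitted alone, with an adjusted p of up to 0.0732 and a log2 difference of 4.89 to 6.95 over the alternatives.

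The promoter sequences of *Il1a* and *Il1b* are shown because both agonists rose with LPS. They are the 250 bases upstream of the start site in the RefSeq annotation of GRCm38.p6, written 5′ to 3′ on the strand of the gene, at chr2:129309973-129310222 (minus strand) for *Il1a* and chr2:129371140-129371389 (minus strand) for *Il1b*. Capitals mark matches on either strand to 6 short patterns, NF-κB (GGGNNNNNCC), ISRE (GAAANNGAAA), AP-1 (TGANTCA), C/EBP (TTGCNNAA), PU.1 (GAGGAA), and the TATA box (TATAAA), where N is any base.
Il1a: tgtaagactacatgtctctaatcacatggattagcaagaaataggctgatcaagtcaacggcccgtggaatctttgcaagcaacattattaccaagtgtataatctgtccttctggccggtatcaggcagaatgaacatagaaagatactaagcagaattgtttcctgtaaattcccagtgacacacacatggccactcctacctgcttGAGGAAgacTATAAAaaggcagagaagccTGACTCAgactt
Il1b: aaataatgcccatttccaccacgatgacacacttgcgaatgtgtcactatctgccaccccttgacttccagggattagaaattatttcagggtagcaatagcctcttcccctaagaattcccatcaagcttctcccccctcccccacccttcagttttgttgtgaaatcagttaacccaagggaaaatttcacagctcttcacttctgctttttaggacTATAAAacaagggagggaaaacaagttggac

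Of all 32851 promoter windows of 300 bases in the same table, 50.8% held the NF-κB pattern, 3.44% the ISRE, 7.81% the AP-1, 10.8% the C/EBP, 28.3% the PU.1, and 13.6% the TATA pattern. In the *Il1a* sequence the PU.1 pattern lay at −41 to −36 from the start site, the TATA pattern at −32 to −27, and the AP-1 pattern at −12 to −6. The *Il1b* sequence held the TATA pattern at −31 to −26 and none (0) of the other 5. A match describes the letters of this window and does not show that a factor binds there, and an absent match says nothing about the factor. No matches (0) in the printed sequences overlap each other.

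*Il18* encodes IL-18, an agonist made as a precursor that caspase-1 cleaves. The values were 9.09 and 9.27 on the untreated arrays, 11.73 and 11.94 on the LPS arrays, and 8.74 and 9.57 on the LPS+USP7i arrays. The LPS arrays were higher than all others, whereas the LPS+USP7i arrays lay on either side of the untreated ones. *Il18* rose by 2.66 on the log2 scale with LPS (SE 0.31, adjusted p = 0.0126) and fell by 2.68 between LPS and LPS+USP7i (SE 0.31, adjusted p = 0.0253), a 6.39-fold decrease. LPS+USP7i minus untreated was −0.02 (95% confidence interval −0.88 to 0.84), a difference near 0. With 75th percentile scaling this difference was 0.011, or −0.53 after the median over all probes, 0.546, was subtracted. The median over detected probes was smaller, 0.0938, so the subtracted value depends on the probes taken as reference. The decrease passed in 10 of 15 alternatives (adjusted p 0.000676 to 0.0979) and was lost without either untreated or either LPS array and with the 2 groups fitted alone, with a log2 difference of −3.09 to −2.26 over the alternatives. The rise with LPS was lost without the same arrays, with an adjusted p of up to 0.073 and a log2 difference of 2.42 to 2.83.

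*Il33* is the gene for the alarmin IL-33, which signals through the receptor encoded by *Il1rl1*. Its log2 signal was 2.10 and 2.09 on the untreated arrays, 6.65 and 7.06 on the LPS arrays, and 4.67 and 5.43 on the LPS+USP7i arrays. The groups were again ordered untreated, LPS+USP7i, LPS, and the untreated arrays were not well above background. *Il33* was at least 7.68-fold higher with LPS (adjusted p = 0.00444) and at least 2.21-fold higher with LPS+USP7i (adjusted p = 0.0136) than in untreated cells. Without the bound the log2 differences were 4.76 and 2.96, and with normexp background correction 1.51 and 0.72, with the values from the deposited table in between. With the inhibitor it fell by 1.80 relative to LPS (SE 0.31, adjusted p = 0.0495), close to the threshold. This call was kept in 6 of 15 alternatives (adjusted p 0.00453 to 0.161) and was lost without any of the arrays except LPS+USP7i replicate 2, with the replicate number as a block, with the 2 groups fitted alone, and with a trended prior. The log2 difference ranged from −2.18 to −0.79, the latter with normexp background correction, and the deposited table gave a smaller decrease that did not pass. The call against untreated cells with LPS+USP7i was lost without either untreated array (adjusted p up to 0.0792).

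*Il1rn* encodes the IL-1 receptor antagonist, which occupies IL-1R1 without signaling. It measured 9.06 and 10.22 on the untreated arrays, 11.65 and 11.70 on the LPS arrays, and 11.97 and 12.20 on the LPS+USP7i arrays. Both stimulated groups lay above the untreated arrays, and the LPS+USP7i arrays were slightly above the LPS arrays. The rise was 2.04 on the log2 scale with LPS (SE 0.42, adjusted p = 0.0463) and 2.44 with LPS+USP7i (adjusted p = 0.0375). LPS and LPS+USP7i differed by 0.40 (95% confidence interval −0.75 to 1.56, adjusted p = 0.668), which was not larger than the spread that limma estimated. *Il1rn* had its highest mean in LPS+USP7i cells, where *Il1a*, *Il1b*, *Il18*, and *Il33* had lower means than in LPS cells. Whether the response of *Il1rn* to the inhibitor differed from theirs was not tested. The rise with LPS was called in 10 of 15 alternatives (adjusted p 0.00655 to 0.163) and was lost without either LPS or either LPS+USP7i array and with the 2 groups fitted alone, as was the rise with LPS+USP7i (adjusted p up to 0.136). The log2 differences over the alternatives were 1.46 to 2.62 with LPS and 1.86 to 3.02 with LPS+USP7i.

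*Il18bp* encodes a secreted protein that binds IL-18 and blocks its action. The log2 signal was 10.00 and 9.42 on the untreated arrays, 12.49 and 12.13 on the LPS arrays, and 10.96 and 11.12 on the LPS+USP7i arrays. The 3 groups did not overlap, with LPS+USP7i in between. *Il18bp* rose by 2.60 with LPS (SE 0.25, adjusted p = 0.00863) and was 1.33 above untreated cells with LPS+USP7i (adjusted p = 0.048), 51.2% of the log2 rise. Its signal was 2.4-fold lower with LPS+USP7i than with LPS. The log2 difference between LPS+USP7i and LPS, −1.26, did not pass (adjusted p = 0.067, range over alternatives 0.0117 to 0.214), but it did in 4 of 15 alternatives, among them the deposited table. The rise over untreated cells with LPS+USP7i was lost with any of the 6 arrays left out, with the replicate number as a block, and with the 2 groups fitted alone, with an adjusted p of up to 0.163 and a log2 difference of 1.04 to 1.62 over the alternatives.

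The corresponding upstream sequences of *Il18* and *Il18bp*, a ligand and its inhibitor that both rose with LPS, lie at chr9:50554450-50554699 (plus strand) and chr7:102018233-102018482 (minus strand) of GRCm38.p6, with capitals for the same patterns.
Il18: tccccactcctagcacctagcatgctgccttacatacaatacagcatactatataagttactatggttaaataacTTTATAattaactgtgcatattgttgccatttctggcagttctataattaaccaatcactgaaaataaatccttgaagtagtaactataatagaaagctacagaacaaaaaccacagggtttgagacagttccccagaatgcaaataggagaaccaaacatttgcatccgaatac
Il18bp: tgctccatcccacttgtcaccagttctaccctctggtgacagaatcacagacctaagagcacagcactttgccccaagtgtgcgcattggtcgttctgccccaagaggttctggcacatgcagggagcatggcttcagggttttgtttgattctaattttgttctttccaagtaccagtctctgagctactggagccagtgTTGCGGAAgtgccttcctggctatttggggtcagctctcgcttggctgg

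The *Il18* sequence held the TATA pattern on the opposite strand at −175 to −170, and the *Il18bp* sequence held the C/EBP pattern at −49 to −42. All 9 genes matched the RefSeq table, with 13 windows among them. The NF-κB pattern, held by 50.8% of all windows, occurred in all 3 windows of *Il1rn*, of which 2 overlap and hold the same site. It also occurred in 1 of the 2 windows of *Il1r1* and in the window of *Il1rap*. The *Il1rap* window held 9 matches on both strands together, overlapping in part, and also the ISRE pattern. The window of *Il1r2* held none of the 6 patterns (0).

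*Il1r1* encodes the signaling receptor for IL-1α and IL-1β. Its values were 5.56 and 5.76 on the untreated arrays, 5.45 and 5.04 on the LPS arrays, and 8.42 and 7.60 on the LPS+USP7i arrays. The LPS+USP7i arrays stood above the other 4 arrays, and LPS and untreated cells differed by −0.42 (95% confidence interval −1.34 to 0.51, adjusted p = 0.533). *Il1r1* rose by 2.76 on the log2 scale in LPS+USP7i relative to LPS (SE 0.34, adjusted p = 0.0267), a 6.78-fold increase, and by 2.35 relative to untreated cells (adjusted p = 0.0251). The increase over LPS was 2.97 and 2.55 in the separate replicates. It was called in 9 of 15 alternatives (adjusted p 0.00413 to 0.0983) and was lost without any of the arrays except LPS+USP7i replicate 2, and also with the 2 groups fitted alone. With normexp background correction the increase was 1.53. The call against untreated cells was lost without either untreated or either LPS array and with the 2 groups fitted alone (adjusted p up to 0.121), and that difference was 1.39 with normexp. Among the 9 genes, *Il1r1* was the only one that limma called higher in LPS+USP7i than in LPS in the fit of all 6 arrays.

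*Il1r2* encodes the decoy receptor, which binds IL-1 without signaling. The log2 signal was 4.71 and 4.21 on the untreated arrays, 5.38 and 5.27 on the LPS arrays, and 5.62 and 5.38 on the LPS+USP7i arrays. It was well above background on 1 of 2 untreated arrays and on all 4 stimulated arrays. The differences from untreated cells were 0.86 with LPS (adjusted p = 0.0666) and 1.04 with LPS+USP7i (adjusted p = 0.0523), and neither passed the threshold. Over the alternatives they passed in 2 and 6 of 15 (adjusted p 0.0217 to 0.223 and 0.015 to 0.17), both of them with the replicate number as a block and with dim probes left out, and with normexp background correction they were 0.29 and 0.36. LPS+USP7i and LPS differed by 0.18 (95% confidence interval −0.39 to 0.75).

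*Il1rap* encodes IL-1RAcP, the accessory chain shared by the receptors for IL-1 and IL-33, and was the one gene with 3 probes. The brightest probe, designed on transcript variant 2, read 4.77 and 5.66 on the untreated arrays, 6.03 and 6.84 on the LPS arrays, and 5.47 and 5.56 on the LPS+USP7i arrays. LPS arrays were the highest, and LPS+USP7i arrays lay within the range of the untreated ones. No comparison passed for this probe, with log2 differences of 1.22 for LPS minus untreated (adjusted p = 0.161), −0.92 for LPS+USP7i minus LPS (adjusted p = 0.337), and 0.30 for LPS+USP7i minus untreated (adjusted p = 0.792). The probe for transcript variant 1 was not well above background on any untreated or LPS array and was so on 1 of 2 LPS+USP7i arrays, where it read 8.02 against 3.50 on the other. The third probe, designed on an Ensembl transcript, was well above background on 2 untreated arrays, 1 LPS array, and 0 LPS+USP7i arrays, with values from 3.70 to 5.03. The probes therefore differed in direction for LPS, at 1.22 for variant 2 and −0.34 for the Ensembl transcript, and neither difference passed.

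**Figure D2:**
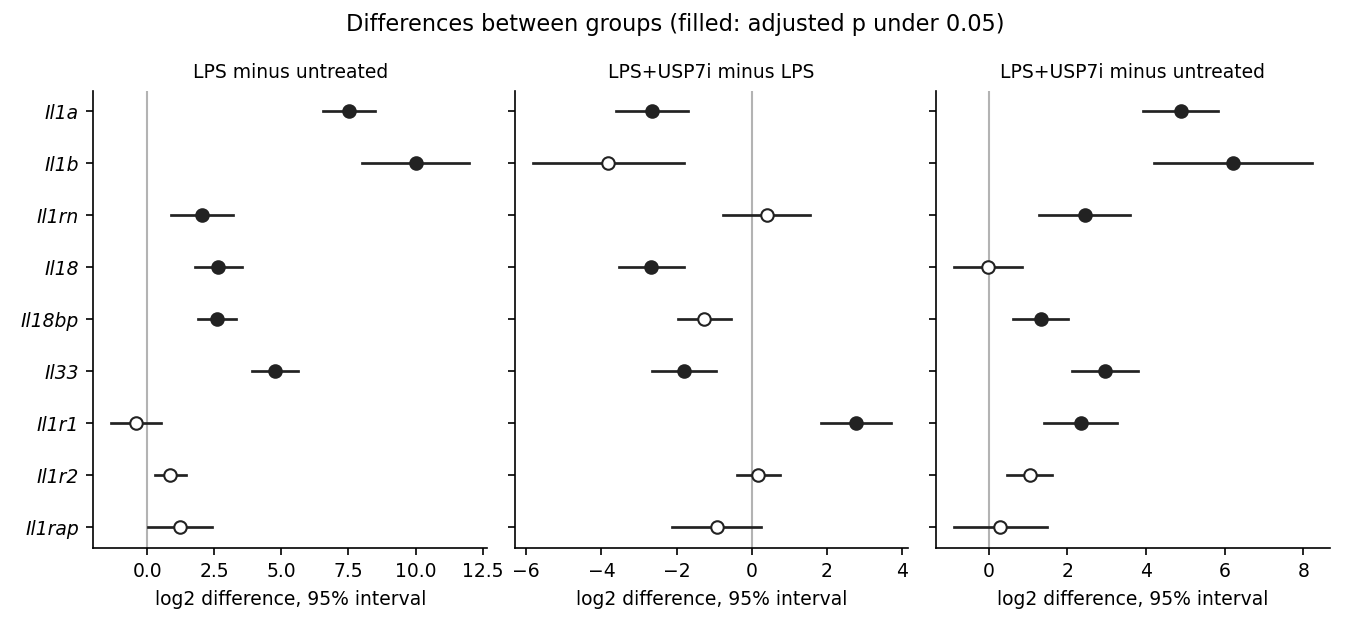
Log2 differences of the 9 genes (horizontal axis) in the 3 comparisons, with points for the limma estimate and bars for its 95% confidence interval. For *Il1a* and *Il33*, whose untreated arrays were not well above background, the differences from untreated cells are measured values and the text gives bounds; *Il1r1* lies at 2.76 and *Il18* at −2.68 for LPS+USP7i minus LPS.

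The member probes lie on mouse genome build mm9, in which the array files give their positions. *Il1a*, *Il1b*, and *Il1rn* were read on chromosome 2, at 129125994 to 129126053, 129190347 to 129190406, and 24205094 to 24205153. *Il1r1* and *Il1r2* were read on chromosome 1, at 40372667 to 40372726 and 40180014 to 40180073. The *Il18*, *Il18bp*, and *Il33* probes lie on chromosome 9 from 50389761 to 50389820, chromosome 7 from 109164100 to 109164159, and chromosome 19 from 30035101 to 30035160. The *Il1rap* probes lie on chromosome 16, that of variant 2 from 26701498 to 26701557. The files name the mRNA of each probe, and 10 of the 11 probes carried an accession that RefSeq assigns to the same gene, but the exon each probe lies in was not analysed here.

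Scaling each array to its 75th percentile, in place of quantile normalization, gave a median difference over all probes of 0.507 for LPS minus untreated and 0.546 for LPS+USP7i minus untreated, against 0.00448 and 0.000269. Over the 25085 detected probes the medians were 0.0445 and 0.0938, against −0.179 and −0.0866. The called gene names then split into 12184 higher and 4051 lower with LPS, against 2779 and 4446, and into 12216 higher and 3363 lower for LPS+USP7i minus untreated, against 2144 and 3040. After the median over all probes was subtracted, the LPS differences were 9.84 for *Il1b*, 2.32 for *Il18*, 2.30 for *Il18bp*, 1.69 for *Il1rn*, and −0.92 for *Il1r1*. The median over detected probes, 0.0445, would change these differences by less, and before any subtraction that of *Il1r1* was −0.42. For LPS+USP7i minus LPS that median was 0.0023, and the remaining differences were −2.73 for *Il1a*, −2.82 for *Il18*, −1.64 for *Il33*, and 2.81 for *Il1r1*. No family gene (0) changed direction under any alternative in LPS minus untreated or in LPS+USP7i minus LPS, whether or not limma called it.

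A further 34 genes of the pathway, fixed as a list of other ligands, other receptors, signaling proteins, and proteins of processing and release, were all measured. With LPS, 11 of the 34 were higher and 5 lower (7.98% and 12.8% of all gene names), with a median log2 difference of 0.57. With LPS+USP7i relative to LPS, 1 was higher and 8 were lower (5.51% and 4.28% of all gene names), with a median of −0.28. The 5 lower with LPS are thus near the share over all gene names, and the 1 higher with the inhibitor is below it. In LPS+USP7i relative to untreated cells, 10 were higher and 5 lower (6.15% and 8.72%), with a median of 0.011, and over the alternatives 3 to 17 were higher and 2 to 7 lower, fewest without either untreated array. Over the alternatives, the counts for LPS+USP7i minus LPS ranged from 0 to 4 higher and from 0 to 11 lower. In the limma fits of the 2 groups alone and without either untreated array, 0 of all gene names passed, although 4333 were higher and 3681 lower in the fit of 2 groups with an unadjusted p under 0.05. Without either LPS array the count of higher pathway genes was also 0, while 525 and 540 of all gene names passed as higher. In LPS minus untreated the counts ranged from 8 to 17 higher and from 2 to 5 lower. Without either untreated array, 0 of the 9 pathway calls for LPS+USP7i minus LPS were kept, and with the replicate number as a block 3 of the 9 were.

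Of the 5 other ligands, 1 was called higher with LPS, where 7.98% of all gene names were. This was *Il36a*, an IL-36 agonist listed on the array as *Il1f6*. The untreated arrays gave it no signal well above background, and it was at least 3.96-fold higher with LPS (adjusted p = 0.0261), with a log2 difference of 4.02, or 1.12 with normexp background correction and in between in the deposited table. In LPS+USP7i minus untreated 2 ligands were called higher, where 6.15% of all gene names were. These were *Il36a* and *Il36g*, which encodes another IL-36 agonist. For *Il36a* the difference was at least 2.58-fold (adjusted p = 0.0483, up to 0.184 over the alternatives), with a log2 difference of 0.92, with normexp, to 4.32, and the call was kept in 8 of 15. It was lost without either untreated or either LPS array, with the replicate number as a block, with the 2 groups fitted alone, and with the deposited table. *Il36g* measured 3.37 and 4.66 on the untreated arrays, of which the latter was well above background, 5.63 and 4.96 on the LPS arrays, and 7.63 and 8.32 on the LPS+USP7i arrays. It was 3.96 above untreated cells on the log2 scale (adjusted p = 0.0254, 0.00176 to 0.0961 over the alternatives) and 1.99 above them with normexp, and the call was lost with any of the 6 arrays left out and with the 2 groups fitted alone. LPS+USP7i minus LPS was 2.68 and did not pass (adjusted p = 0.0759). Of the 7 other receptors, 2 fell with LPS, where 12.8% of all gene names did. They were *Il1rl1*, the IL-33 receptor, by 1.5 (limma, adjusted p = 0.0412), and *Sigirr*, an inhibitory receptor of the family, by 0.94 (adjusted p = 0.00568). As the mean of all its probes *Il1rl1* fell by 0.47 and did not pass. With normexp background correction it also fell by less than 1.5. *Il18rap*, the accessory chain of the IL-18 receptor, measured 4.93 and 5.06 on the untreated arrays, 6.10 and 6.00 on the LPS arrays, and 2.81 and 4.00 on the LPS+USP7i arrays, where it was not well above background. It was at least 3.41-fold lower with LPS+USP7i than with LPS (adjusted p = 0.0436), with a log2 difference of −2.65, or −0.68 with normexp background correction and in between in the deposited table.

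Of 17 signaling genes, 6 rose and 3 fell with LPS, where 7.98% and 12.8% of all gene names did. With the inhibitor 5 were lower and 1 higher than with LPS, where 4.28% and 5.51% of all gene names were. The 3 that fell with LPS and the 1 higher with the inhibitor are near those shares. *Myd88*, the adaptor of IL-1 and Toll-like receptors, rose by 2.0 with LPS (adjusted p = 0.00734) and fell by 1.05 with the inhibitor (adjusted p = 0.0499). *Irak2*, a kinase-related protein of the receptor complex, rose by 1.43 and fell by 0.93 (adjusted p = 0.0083 and 0.0365). *Irak3*, which encodes the inhibitory protein IRAK-M, rose by 1.80 (adjusted p = 0.0126) and fell by 1.83 (adjusted p = 0.0249). Like *Il18*, *Irak3* had LPS+USP7i values, 10.04 and 10.56, on either side of the untreated ones, 10.40 and 10.27. *Ikbkb*, the gene for the kinase IKKβ, rose by 1.11 and fell by 1.29 (adjusted p = 0.00494 and 0.012), and *Tab2*, an adaptor of the kinase TAK1, rose by 1.44 and fell by 1.12 (adjusted p = 0.00684 and 0.0232). *Tollip*, an adaptor that restrains IL-1 receptor signaling, was the one pathway gene called higher with the inhibitor, and it rose by 1.61 over LPS (adjusted p = 0.0213, 0.00141 to 0.0812 over the alternatives). Its values were 12.29 and 12.36 on the untreated arrays, 11.91 and 11.74 on the LPS arrays, and 13.64 and 13.22 on the LPS+USP7i arrays. *Peli1*, a ubiquitin ligase of the pathway, rose by 4.36 with LPS (adjusted p = 0.00304). Its difference for LPS+USP7i minus LPS, −1.05, did not pass (limma, adjusted p = 0.0539). *Tab1*, *Peli2*, and *Irak1* fell with LPS by 2.11, 1.75, and 0.40 (adjusted p = 0.0028, 0.0407, and 0.0369). Among all named pathway genes, *Il36a*, *Il1rl1*, *Irak1*, *Irak3*, *Peli2*, and *Gsdmd* lost their call with LPS in 4 or more alternatives, with an adjusted p of up to 0.203, and the other 10 kept it in all 15. The decrease of *Irak1* was 0.26 with 75th percentile scaling. Of the calls for LPS+USP7i minus LPS, *Ikbkb* kept its call in 12 alternatives, *Tollip* in 10, *Irak3*, *Tab2*, *Il18rap*, and *Pycard* in 9, *Gsdmd* in 8, *Irak2* in 7, and *Myd88* in 6, with an adjusted p of up to 0.17.

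Of the 5 genes of processing and release, 4 rose with LPS and 2 were lower with the inhibitor than with LPS. The shares over all gene names were 7.98% and 4.28%. *Nlrp3*, an inflammasome sensor, measured 5.21 and 5.66 on the untreated arrays, 10.71 and 10.24 on the LPS arrays, and 10.29 and 10.12 on the LPS+USP7i arrays. It rose by 5.04 with LPS (adjusted p = 0.00324), and LPS+USP7i minus LPS was −0.28 (adjusted p = 0.605). *Casp4*, a caspase that senses cytosolic LPS, rose by 3.34 (adjusted p = 0.0043) and *Casp1*, the protease that cleaves the precursors of IL-1β and IL-18, by 1.29 (adjusted p = 0.00534). For these 2 genes LPS+USP7i minus LPS was −1.04 and −0.51, and neither passed (limma, adjusted p = 0.0673 and 0.0592). *Pycard*, the inflammasome adaptor ASC, did not pass with LPS but fell by 1.35 with the inhibitor (adjusted p = 0.0256), from 14.16 and 14.01 to 12.54 and 12.93. *Gsdmd*, the pore-forming protein through which IL-1β is released, rose by 0.87 with LPS (adjusted p = 0.0272) and fell by 0.98 with the inhibitor (adjusted p = 0.0364).

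**Figure D3:**
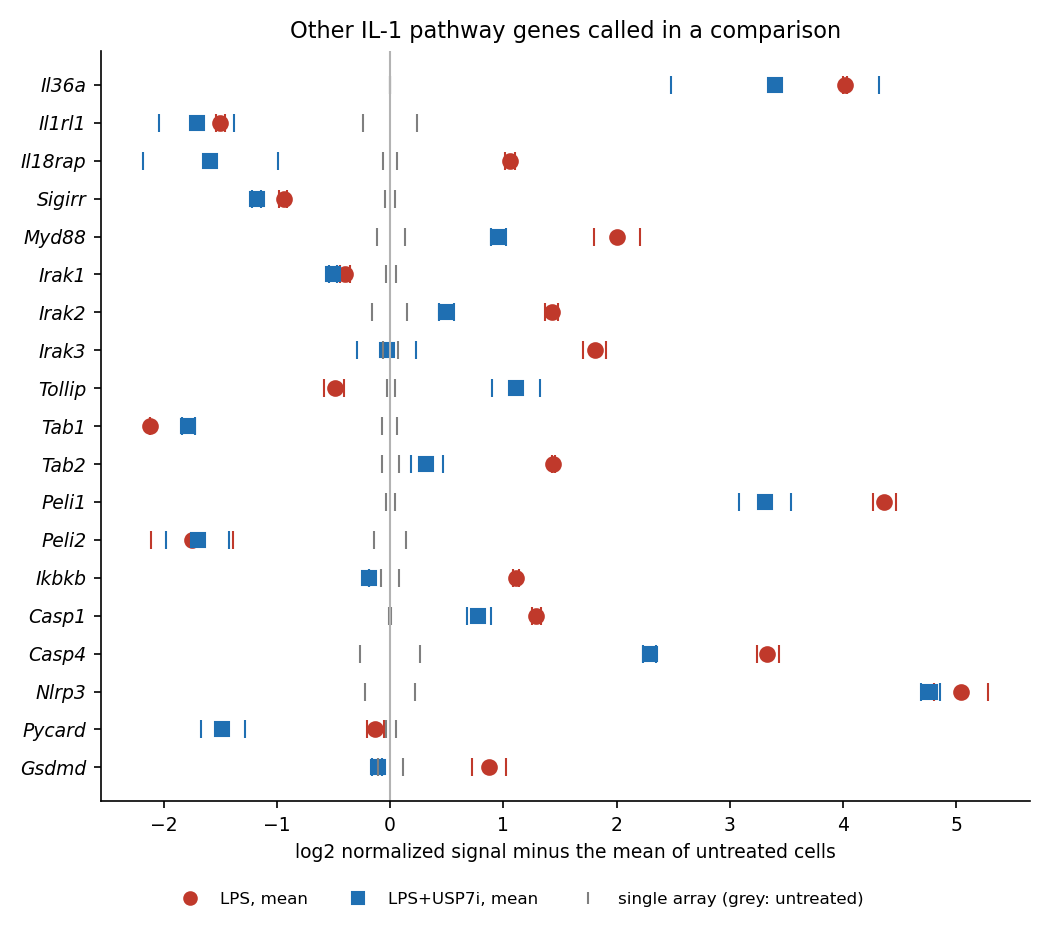
Log2 signal of the 19 pathway genes called with LPS or with the inhibitor, minus the mean of untreated cells (horizontal axis), with large symbols for group means and small ticks for single arrays. *Nlrp3* lies at 5.04 with LPS, and *Tollip* and *Pycard* are set apart from LPS in opposite directions in LPS+USP7i cells.

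Gene expression patterns nearest to those of *Il1a*, *Il1b*, and *Il1rn* were sought among 15129 gene names, by the root mean square distance between log2 profiles over the 6 arrays after each profile was centered on its own mean. For *Il1a* the nearest were *Gpr84* (distance 0.343), *Tnfsf10* (0.369), *Cish* (0.374), *Gm14446* (0.40), and *Ch25h* (0.415). *Gpr84* measured 8.04 and 7.26 on the untreated arrays, 14.99 and 14.79 on the LPS arrays, and 11.85 and 12.37 on the LPS+USP7i arrays, with the order of groups seen for *Il1a*. As *Il1a* was not well above background on the untreated arrays, its distances and their ranks rest in part on background readings. For *Il1b* they were *Cxcl9* (0.454), *Edn1* (0.477), *Adamts4* (0.579), *Cd69* (0.647), and *Vcam1* (0.701), of which *Cd69* was the one well above background in untreated cells. For *Il1rn* they were *6330409N04Rik* (0.243), *Ets2* (0.256), *Usp26* (0.262), *Dclk1* (0.273), and *1700037F03Rik* (0.275). *Ets2* read 10.84 and 11.48 on the untreated arrays, 13.48 and 13.54 on the LPS arrays, and 13.93 and 13.59 on the LPS+USP7i arrays. *Usp26*, *Dclk1*, and *1700037F03Rik* lacked a signal well above background on the untreated arrays. For genes without such a signal, also those around *Il1b*, the distances and ranks rest in part on background readings.

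**Figure D4:**
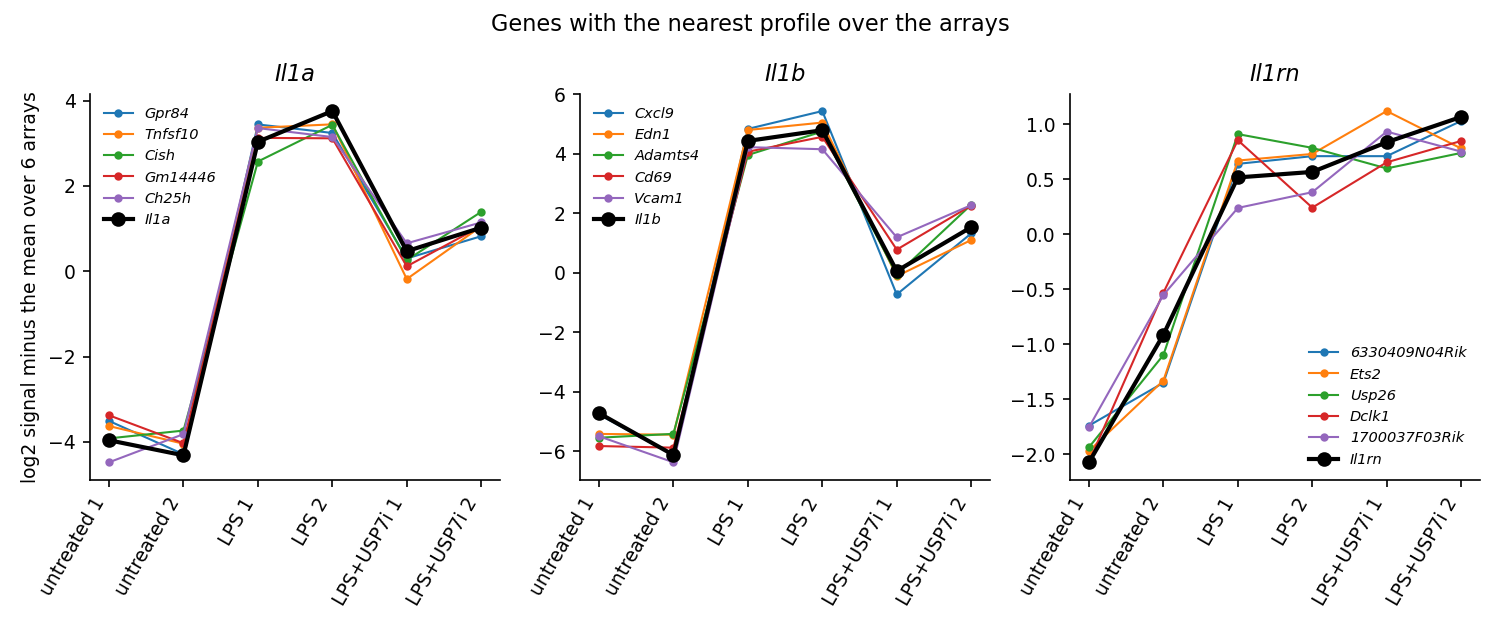
Log2 signal minus the gene's own mean (vertical axis) on the 6 arrays (horizontal axis) for *Il1a*, *Il1b*, and *Il1rn* and the 5 gene names with the smallest distance to each, drawn as lines. The distances were 0.343 to 0.415 around *Il1a*, 0.454 to 0.701 around *Il1b*, and 0.243 to 0.275 around *Il1rn*.

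Markers of other cell types were read in the same samples. The summed signal of the 8 macrophage markers was 729800 and 721300 on the untreated arrays, 725400 and 749800 on the LPS arrays, and 628400 and 587500 on the LPS+USP7i arrays, with *Csf1r* the most abundant. Here the most abundant gene of a list is the one whose probe had the highest mean log2 signal. This depends on the probe as well as on the transcript, and means on the linear scale of the sums can rank genes differently. With LPS, limma called 1 macrophage marker higher and 1 lower, where 7.98% and 12.8% of all gene names were. The 1 lower, near that share, was *Itgam*, by 0.66 (adjusted p = 0.0233). With the inhibitor 0 were higher than with LPS and 2 lower by limma, where 5.51% and 4.28% of all gene names were. The 2 lower with the inhibitor, *Cd14* and *Fcgr1*, named after their values were seen, fell by 1.31 and 1.60 (adjusted p = 0.0184 and 0.0317). *Cd14* was the one that rose with LPS, by 1.69 (adjusted p = 0.00518). Of the 8 differences for LPS+USP7i minus LPS, 5 were negative and 3 positive, *Cd68* at 0.16, *Itgam* at 0.31, and *Lyz2* at 0.15. In LPS+USP7i cells the means of 7 of the 8 lay below those of untreated cells. Of 8 neutrophil markers, 6 were well above background on all arrays, *Elane* was the most abundant on the mean of the arrays though not on LPS replicate 2, where *S100a9* read higher, and the summed signal was 5240 and 6962 on the untreated arrays, 5869 and 11810 on the LPS arrays, and 6221 and 9792 on the LPS+USP7i arrays. Of 4 T cell markers, 2 were well above background on all arrays, with *Cd3e* the most abundant on the mean of the arrays, *Lck* on the LPS arrays, and sums of 782 and 699, 2628 and 3113, and 1105 and 1144 in the same order. *Lck*, a T cell kinase singled out after its values were seen, rose by 4.23 with LPS (limma, adjusted p = 0.00331) and fell by 2.47 with the inhibitor (adjusted p = 0.0161). *Cd3e* differed by 0.025 and 0.23 (adjusted p = 0.981 and 0.519). The other T cell markers were *Cd3d*, well above background on 1 untreated array only, and *Cd3g*, which was so on 0 arrays. Of 3 endothelial markers, 1 was well above background on all arrays, *Kdr*, which was the most abundant, with sums of 7170 and 5371, 7143 and 6217, and 9850 and 7120. None (0) of 5 dendritic cell, 5 fibroblast, or 5 mast cell and basophil markers was well above background on all arrays. The most abundant dendritic cell marker was *Zbtb46*, at least 5.65-fold higher with LPS than in untreated cells (adjusted p = 0.00435), and the sums of that list were 39.6 and 45.9, 124 and 131, and 84.0 and 94.6. The fibroblast sums, with *Dcn* the most abundant, were 60.1 and 63.7, 110 and 79.6, and 92.4 and 64.8, and the mast cell and basophil sums, with *Tpsb2* the most abundant, were 86.2 and 63.5, 127 and 74.5, and 100.3 and 60.3. The defining markers *Cd3e* and *Ly6g* were well above background on all 6 arrays, *Cpa3* on 1 LPS and 1 LPS+USP7i array, *Cdh5* on 1 untreated array, and *Flt3* and *Col1a1* on 0 arrays. The part of these cell types in the IL-1 family values was not tested.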

How the data were processed

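RNA of 6 BMDM samples, 2 each of untreated, LPS, and LPS+USP7i cells, was labeled with Cy3 and hybridized to 1-color Agilent arrays. The authors deposited scanner files, in which Agilent Feature Extraction 10.7.3.1 gives each spot an intensity corrected for background but not normalized between arrays. The deposited table of log2 values, which the methods describe as quantile-normalized with limma, served as an alternative, and its medians lay between 5.07 and 5.10 per array. Its centering and exact background correction are not stated in the sources used here.

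The processed intensity was log2-transformed and quantile-normalized over spots that were not controls. Outlier spots were left out, and spots of 1 probe were averaged. The 3 groups were fitted together in limma 3.58.1 under R 4.3.3 (lmFit, then eBayes, 3 residual and 1.05 prior degrees of freedom), with Benjamini-Hochberg adjustment over 55680 probes and a threshold of 0.05. A gene was counted through its brightest probe, over 34843 gene names. An exact permutation test of 2 against 2 arrays cannot give a two-sided p below 0.333. Across 20721 probes, replicates correlated with r = 0.996, 0.993, and 0.991.

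All 9 family genes were named, with up to 20 pathway genes called with LPS or the inhibitor, the most abundant and defining cell type markers, and the 5 nearest patterns of *Il1a*, *Il1b*, and *Il1rn*. Members and lists were chosen with earlier results of these data known. Alternatives were 75th percentile scaling, normexp background correction (offset 50), the deposited table, dim probes left out, outlier spots kept, the replicate number as a block, a trended prior, only the 2 groups compared, the mean of all probes of a gene, and each array left out. Those for the pathway list were added after the data were seen. Promoter sequences are from RefSeq GRCm38.p6. The markers of 1 cell type are not reported here.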

Additional observations from a re-analysis of the deposited data

How the results depend on the processing

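Over 15 alternatives, the log2 differences of the 9 family genes kept both direction and side of the threshold in 124 of 135 cases for LPS minus untreated, 98 of 135 for LPS+USP7i minus LPS, and 98 of 135 for LPS+USP7i minus untreated. A call was lost in 9, 28, and 27 cases and gained in 2, 9, and 6. The direction turned in 4 cases, all for LPS+USP7i minus untreated and none of them called. *Il18* was between −0.44 and 0.39 with an array left out. It was positive at 0.070 without untreated replicate 2 and at 0.39 without LPS+USP7i replicate 1. With 75th percentile scaling *Il18* was 0.011, or −0.53 after the median over all probes, 0.546, was subtracted. The median over detected probes was smaller, 0.0938. *Il18* lay below both medians, so that case is no change of direction relative to the other probes. *Il1rap* was between −0.15 and 0.74 with an array left out, the negative value without untreated replicate 1. The cause was not tested.

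The count of genes lower with LPS+USP7i than with LPS, 3, was 5 with normexp background correction and 5 with dim probes left out, where 6.83% and 12.9% of all gene names were lower against 4.28%, and the cause was not tested. With only the 2 groups compared, limma called 0 of the 9 lower and 0 higher, where 0 of all gene names passed either way. At an unadjusted p under 0.05 these counts were 5 and 2, against 3681 and 4333 gene names. For LPS+USP7i minus untreated 2 of the 9 were higher, against 3.87% of all gene names. These fits rest on fewer samples. With an array left out, the counts ranged from 0 to 2 lower and from 0 to 1 higher for LPS+USP7i minus LPS, and from 1 to 4 higher for LPS+USP7i minus untreated, where the full count was 6. The shares of all gene names were then 0 to 3.41% lower, 0 to 5.47% higher, and 1.37 to 5.74% higher. The lone array left in a group is assumed to vary as those of the other groups do. For LPS minus untreated, 4 to 5 genes were higher with an array left out, with 3.28 to 7.42% of all gene names.

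The labels do not say that a replicate number marks a shared experiment. With the replicate number as a block, 1 gene was lower with LPS+USP7i than with LPS, where 3.23% of all gene names were. The other counts moved by less than 1.5 times. Among the genes behind these counts, *Il1a* and *Il33* lost their call for LPS+USP7i minus LPS and *Il18bp* for LPS+USP7i minus untreated, while *Il1r2* gained one in both comparisons with untreated cells. The differences between replicates correlated between groups with r = 0.468, 0.422, and 0.398 over 20721 probes, which are not independent. Low signal over background limits the values of *Il33*, *Il1r2*, and *Il1rap*, of *Il1r1* on the untreated and LPS arrays, and of *Il1a* and *Il1b* on the untreated arrays.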
